A study of Homo sapiens with 18 samples.

Results

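CCL2, CCL5, CCL7, CCL8, CCL20 and CCL22 are CC chemokine genes that monocytes and macrophages can use. They were chosen by symbol, as the rows of the count table whose Ensembl identifier maps to these names, and make up 6 of its 63677 genes. All 6 had an identifier in the table, 5 had counts, and 4 (CCL2, CCL8, CCL20 and CCL22) had enough counts to be tested. The RNA came from THP-1, a human acute monocytic leukaemia line, and every group was kept in the same medium and stems from this 1 line. KD cells received 25 nM of a single siRNA against TRAFD1, SCR cells received 25 nM of a non-targeting siRNA, and WT cells received no siRNA. The labels conflict on WT, which is called untreated in one place and described as given the transfection mix alone in another, so the reagent and the siRNA cannot be told apart as the difference between SCR and WT. At 72 h after transfection the cells were given LPS from E. coli at 10 ng/ml (LPS) or medium (unstimulated) for 4 h. There were 6 groups of 3 libraries, with replicate numbers 1 to 3 in the unstimulated groups and 4 to 6 in those given LPS. Separate cultures are not stated beyond triplicate growth, so p-values measure the spread between these libraries, which may in part be technical.

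Chemokines of the CC family are small secreted proteins that guide leukocytes through G protein-coupled receptors. CCL2, CCL7 and CCL8, also called monocyte chemoattractant proteins 1, 3 and 2, attract monocytes through CCR2. CCL5 attracts T cells and monocytes. CCL20 binds CCR6 on T cells, B cells and dendritic cells, and CCL22 binds CCR4 on T helper 2 and regulatory T cells. In monocytes LPS is sensed by TLR4 with CD14 and LY96, and the signal reaches chemokine genes through NF-kB and, by way of TICAM1, through interferon regulatory factors. TRAFD1, the target of the siRNA, is known as a negative regulator of innate immune signalling.

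Values are given as CPM, counts per 1000000 counts of the library, scaled between libraries with TMM. The library method reads 1 fragment near the 3' end of each transcript, so the length of a gene does not enter its CPM. Reads outside the 500 bases counted per gene are missed, and whether levels compare between genes was not tested. Ranks, shares and ratios between genes below therefore describe counts. Library totals ran from 8206023 to 22344279 counts, and a floor of 3 counts, the limit that a count of 0 allows, lay between 0.133 and 0.378 CPM. These floors cover counting error only, and in such bulk samples fewer cells that make a transcript and less of it per cell cannot be told apart. TRAFD1 itself ranged from 5.36 to 11.6 CPM in unstimulated KD against 20.1 to 26.8 CPM in SCR, and from 13.8 to 15.8 CPM in KD against 18.7 to 27.4 CPM in SCR with LPS. The knockdown passed the test without LPS (log2 fold change -1.45, edgeR adjusted p = 0.0277) but not with LPS (-0.65, adjusted p = 0.262). Of 12 monocytic markers 11 averaged over 1 CPM and the list summed to between 926 and 1232 CPM, while CEBPA had 5 counts in all. Markers of T or NK cells summed to between 1.71 and 4.20 CPM, with CD3D, CD3E and CD2 at 3, 1 and 2 counts over all libraries, CD3G at 38, GNLY at 166 and NKG7 at 566. Those of epithelium summed to between 0.252 and 3.15 CPM, and those of fibroblasts or endothelium to between 0.730 and 3.03 CPM.

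The regions before the start of 3 of the genes are shown because they set a gene that rose with LPS and holds an NF-kB match (CCL20) beside one that rose and holds none in this window (CCL8) and one that holds a match and did not pass the LPS test (CCL22). The RefSeq table for GRCh38.p14 held 4 of the 6 genes, CCL7, CCL8, CCL20 and CCL22, with 250 bases before and 50 after the start, and the 250 bases before the start are given 5' to 3' on the plus strand for CCL8 (chr17:34319185-34319434), CCL20 (chr2:227813592-227813841) and CCL22 (chr16:57358533-57358782). Capitals mark every match of the motifs searched.
CCL8: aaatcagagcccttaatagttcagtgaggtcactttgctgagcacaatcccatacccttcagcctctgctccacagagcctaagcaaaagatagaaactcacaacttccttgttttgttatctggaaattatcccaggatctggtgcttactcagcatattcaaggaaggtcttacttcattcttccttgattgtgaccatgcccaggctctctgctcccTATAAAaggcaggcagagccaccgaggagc
CCL20: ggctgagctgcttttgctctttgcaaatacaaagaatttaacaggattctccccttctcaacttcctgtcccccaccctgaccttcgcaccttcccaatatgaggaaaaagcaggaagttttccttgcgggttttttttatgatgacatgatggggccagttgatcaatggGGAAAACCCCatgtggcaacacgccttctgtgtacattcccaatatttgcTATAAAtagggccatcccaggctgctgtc
CCL22: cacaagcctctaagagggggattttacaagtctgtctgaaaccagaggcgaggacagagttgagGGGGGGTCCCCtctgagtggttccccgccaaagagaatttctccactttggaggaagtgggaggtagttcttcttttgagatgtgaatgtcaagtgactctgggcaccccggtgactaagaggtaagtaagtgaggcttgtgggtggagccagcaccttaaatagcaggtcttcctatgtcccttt
Both strands of the whole window were searched for the NF-kB consensus, the ISRE core GAAANNGAAA, the AP-1 site TGANTCA and the TATA box TATAAA. CCL20 held an NF-kB match on the minus strand from 79 to 70 bases before the start. CCL22 held a pair of overlapping NF-kB matches on the plus strand, the first from 186 to 177 and the other from 185 to 176 bases before the start. The capitals of CCL8 are a TATA box from 30 to 25 bases before the start, and CCL20 had its TATA box from 29 to 24 bases before. CCL7 had an AP-1 match from 51 to 45 and a TATA box from 30 to 25 bases before its start. Of 35116 promoters in the table, 11.3% held the NF-kB consensus, 3.57% the ISRE core, 7.71% the AP-1 site and 11.5% the TATA box. A match describes the letters of these windows and is not a binding site.

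CCL2 was the most abundant of the 5 genes with counts in every library. It lies on chromosome 17 of GRCh37 from 32582293 to 32584227 on the plus strand (ENSG00000108691) and encodes monocyte chemoattractant protein 1. Its unstimulated WT libraries were at 17.6, 11.1 and 12.2 CPM, those of SCR at 22.9, 21.5 and 23.1 CPM and those of KD at 25.7, 13.9 and 16.1 CPM. The SCR libraries all lay above those of WT, and KD, from 13.9 to 25.7 CPM, overlapped with both. With LPS it was at 105, 132 and 89.5 CPM in WT, at 174, 158 and 120 CPM in SCR, and at 131, 125 and 122 CPM in KD. Each library with LPS was above each library without it. The group means with LPS followed the order WT (109 ± 21.3, SD, n = 3), KD (126 ± 4.44) and SCR (151 ± 27.4), and neighbours in that order differed by less than 1 SD of the more variable group.

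CCL8 and CCL20 were close to the floor without LPS and were present in every library with LPS. CCL8 (ENSG00000108700), monocyte chemoattractant protein 2, lies on chromosome 17 of GRCh37 from 32646454 to 32648421 on the plus strand. Without LPS its counts were 7, 3 and 5 in WT, 15, 2 and 3 in SCR, and 18, 1 and 4 in KD. With LPS it was at 5.44, 5.42 and 1.76 CPM in WT, at 15.0, 22.6 and 6.79 CPM in SCR, and at 19.9, 26.1 and 10.6 CPM in KD. The 3 WT libraries were below all of the SCR and KD libraries, whereas SCR and KD overlapped. Replicate 6 was the lowest library of its group in each condition.

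CCL20 (ENSG00000115009), the ligand of CCR6, lies on chromosome 2 of GRCh37 from 228670455 to 228682280 on the plus strand. Without LPS it had 9, 0 and 3 counts in WT, 2, 4 and 6 in SCR, and 18, 0 and 6 in KD. The count of 0 in WT replicate 2 allows a level of up to 0.272 CPM and that in KD replicate 2 a level of up to 0.248 CPM. With LPS it was at 10.1, 10.8 and 3.42 CPM in WT, at 13.4, 28.5 and 5.73 CPM in SCR, and at 20.7, 28.9 and 14.5 CPM in KD. KD lay above WT without overlap, and SCR overlapped with both. As for CCL8, replicate 6 was the lowest library in each condition with LPS, and replicate 1 was the highest of the unstimulated KD libraries for CCL2, CCL8 and CCL20 alike.

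CCL22 was the second most abundant of the 5 genes with counts without LPS in each group mean and the least abundant of the 4 tested genes with LPS in the means of SCR and KD. It lies on chromosome 16 of GRCh37 from 57392695 to 57400101 on the plus strand (ENSG00000102962). Without LPS it was at 3.50, 7.71 and 4.00 CPM in WT, at 4.04, 5.29 and 4.61 CPM in SCR, and at 6.50, 6.93 and 5.75 CPM in KD. With LPS it was at 5.05, 6.09 and 4.69 CPM in WT, at 3.53, 4.72 and 3.82 CPM in SCR, and at 5.85, 4.67 and 4.57 CPM in KD. All 18 libraries thus lay between 3.50 and 7.71 CPM, and libraries with and without LPS overlapped in each condition.

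**Figure D1:**
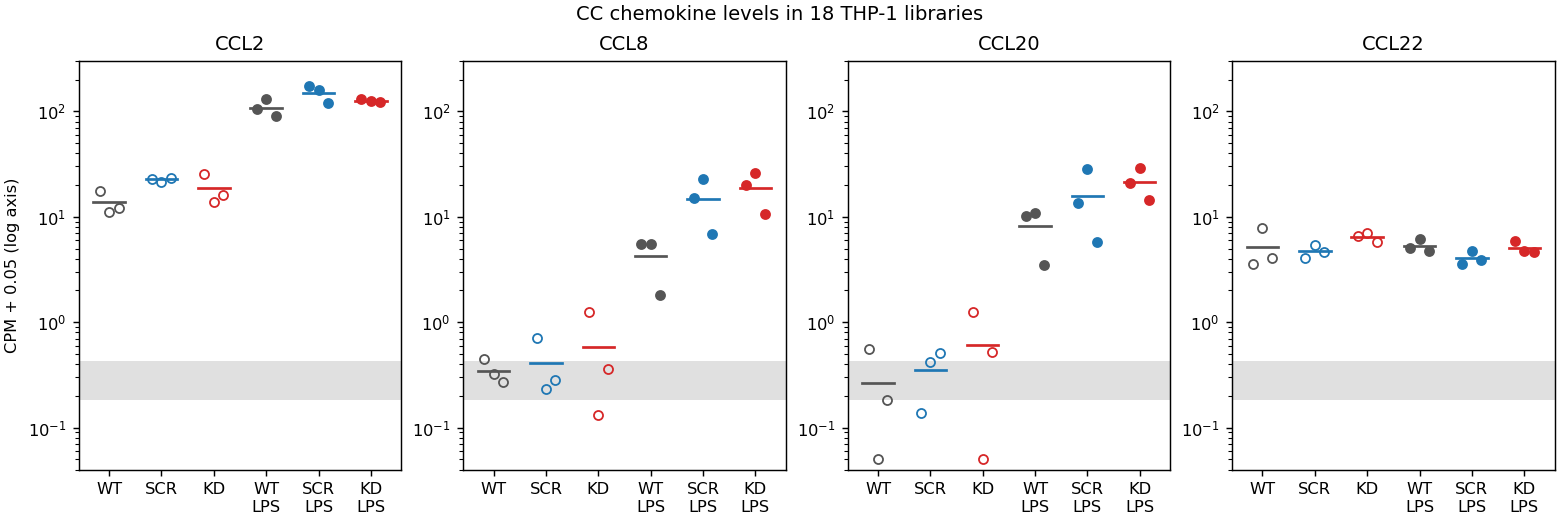
Levels of CCL2, CCL8, CCL20 and CCL22 in the 18 libraries, as CPM plus 0.05 on a log axis; each point is a library (open without LPS, filled with LPS), each bar a group mean and the grey band the range of the 3-count floor. CCL2, CCL8 and CCL20 lie higher with LPS in WT, SCR and KD, CCL22 lies between 3.50 and 7.71 CPM throughout, and CCL8 and CCL20 without LPS lie within or near the grey band.

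CCL7 was barely detected. The gene (ENSG00000108688) encodes monocyte chemoattractant protein 3 and lies on chromosome 17 of GRCh37 from 32597240 to 32599261 on the plus strand, between CCL2 and CCL8. It had 23 counts in 8 of the 18 libraries and did not pass the filter on low counts. With LPS it had 6, 2 and 0 counts in WT, 4, 6 and 1 in SCR, and 0, 2 and 0 in KD. Without LPS there were no counts in WT and KD, and 0, 1 and 1 in SCR. Summed over the group and divided by the summed library totals, WT with LPS was at 0.243 CPM (8 counts, exact Poisson 95% interval 0.105 to 0.479). This point value is 4.03-fold the 3-count floor of 0.0603 CPM over the unstimulated WT libraries, and 6 of its 8 counts came from 1 library. In SCR the level was 0.295 CPM with LPS (11 counts, interval 0.147 to 0.528) against 0.0437 CPM without (2 counts), a ratio of 6.74 with a counting interval of 1.47 to 62.6. In KD the 2 counts with LPS gave 0.0471 CPM (interval 0.00571 to 0.170), under the floor of 0.0707 CPM, and no ratio is given. The intervals cover counting error and not the spread between libraries, and no difference of CCL7 between conditions was detected at this depth. With no filter on low counts, the LPS response of CCL7 missed the threshold in WT, SCR and KD (edgeR adjusted p = 0.188, 0.573 and 0.597). In the same fit KD against SCR with LPS was at -2.67 on the log2 scale (edgeR adjusted p = 0.812). A difference of this size was thus neither called nor excluded.

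CCL5 (ENSG00000271503 in the annotation, chromosome 17 of GRCh37 from 34198495 to 34207797, minus strand) was listed at 0 in all 18 libraries. The 6 protein-coding genes next to it on one side, from RASL10B to HEATR9, were listed at 0 as well, and they include TAF15, an RNA-binding protein that nearly all cells use. Of 31 protein-coding genes within 500000 bases of CCL5, 16 had their identifier in the table and 15 did not, and the authors counted with an older annotation. CCL5 is therefore given neither a level nor a floor.

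**Figure D2:**
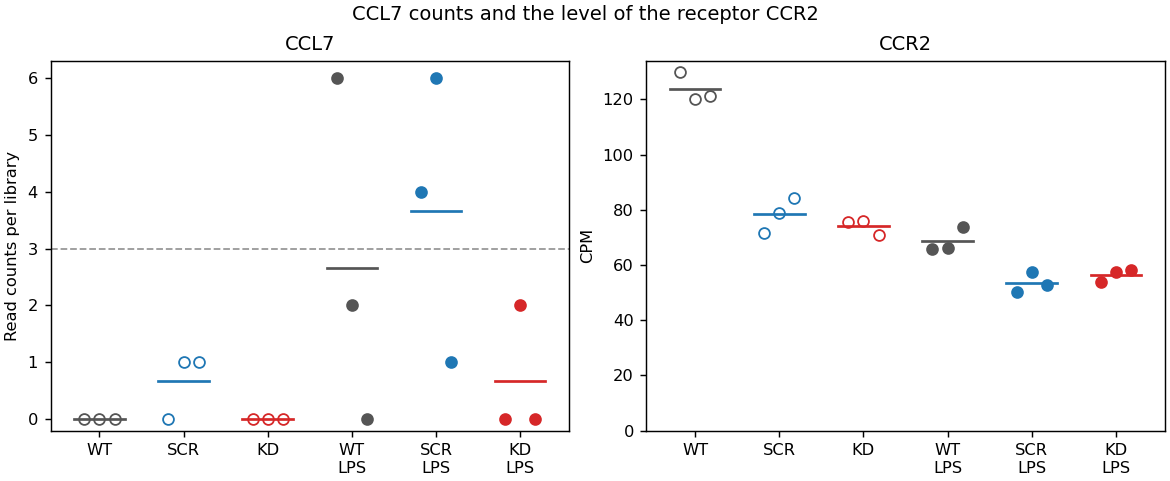
Left, read counts of CCL7 in each library, with a dashed line at the floor of 3 counts; right, CPM of CCR2, the receptor of CCL2, CCL7 and CCL8; points are libraries (open without LPS, filled with LPS) and bars are group means. CCL7 reached over 3 counts in 1 WT and 2 SCR libraries, all with LPS, and CCR2 was highest in unstimulated WT.

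The comparison of LPS with medium asked which of the genes responded to the stimulus in each condition. CCL2, CCL8 and CCL20 rose in WT, SCR and KD, and CCL22 did not pass the test in any of them (edgeR quasi-likelihood F test, Benjamini-Hochberg adjustment over the 16678 genes tested, threshold 0.05). Thus 3 of the 4 tested genes were higher with LPS, where 7.01% of all genes tested were called higher in WT, 8.64% in SCR and 6.41% in KD. The 4 genes had a median log2 fold change of 3.40 (WT), 3.93 (SCR) and 3.90 (KD), against -0.03, -0.03 and -0.0029 over all genes. Only genes with enough counts could be tested, and CCL8 and CCL20 had them through their LPS libraries.

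CCL2 rose by a log2 fold change of 2.99 in WT (SE 0.21, edgeR adjusted p = 6.8e-10), 2.74 in SCR (SE 0.20, adjusted p = 3.7e-09) and 2.76 in KD (SE 0.20, adjusted p = 4.4e-09), which amounts to 6.67-fold to 7.94-fold. CCL8 rose by 3.81 on the log2 scale in WT (SE 0.68, edgeR adjusted p = 4.0e-04), 5.13 in SCR (SE 0.61, adjusted p = 4.6e-06) and 5.04 in KD (SE 0.60, adjusted p = 4.7e-06). CCL20 rose by 5.08 in WT (SE 0.79, edgeR adjusted p = 8.8e-05), 5.86 in SCR (SE 0.77, adjusted p = 1.5e-05) and 5.16 in KD (SE 0.69, adjusted p = 2.2e-05). The LPS libraries of these 3 genes did not overlap with the unstimulated ones in any condition. Of all genes tested, 15.0% in WT, 17.5% in SCR and 12.8% in KD were higher in this way. The folds of CCL8 and CCL20 rest on unstimulated counts of 18 or fewer per library.

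For CCL22 the log2 fold change with LPS was 0.09 in WT (95% interval -0.46 to 0.64, edgeR adjusted p = 0.870), -0.19 in SCR (-0.75 to 0.37, adjusted p = 0.691) and -0.35 in KD (-0.89 to 0.19, adjusted p = 0.421). The intervals hold changes of up to 0.64 upwards in WT and down to -0.89 in KD.

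**Figure D3:**
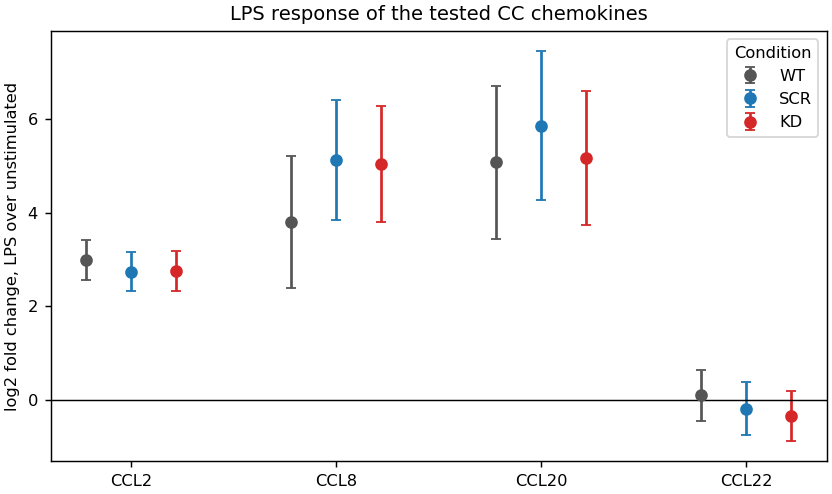
Log2 fold change of LPS over unstimulated for the 4 tested genes in WT, SCR and KD, with 95% intervals from the edgeR fit. CCL2, CCL8 and CCL20 lie above 0 with their whole interval in WT, SCR and KD, and the 3 intervals of CCL22 include 0.

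KD against SCR asked whether the siRNA against TRAFD1 changed these genes beyond a non-targeting siRNA. None of the 4 genes passed the test in either state with edgeR, and over all genes edgeR called 0.066% without LPS and 0% with LPS. None had an unadjusted p under 0.05, against 12.6% of all genes without LPS and 11.8% with LPS. DESeq2 called 0 on all libraries or on the libraries of the contrast alone. Here and below, a gene to which DESeq2 gave no adjusted p counts as not called. With LPS, CCL22 had an adjusted p in 4 of 6 other ways of fitting, and CCL8 and CCL20 in 5. With LPS the log2 fold change was -0.26 for CCL2 (95% interval -0.64 to 0.13), 0.35 for CCL8 (-0.55 to 1.26), 0.43 for CCL20 (-0.60 to 1.46) and 0.31 for CCL22 (-0.25 to 0.87). The interval was narrowest for CCL2 and widest for CCL20. Without LPS the values were -0.28 for CCL2 (-0.70 to 0.14), 0.44 for CCL8 (-1.29 to 2.17), 1.13 for CCL20 (-1.13 to 3.38) and 0.47 for CCL22 (-0.07 to 1.01). CCL22 was the one gene whose 3 KD libraries all lay above the 3 SCR libraries without LPS (edgeR adjusted p = 0.472), and 6.45% of all genes did so. With LPS TRAFD1 itself did not pass the test between these groups.

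SCR against WT compared cells given the non-targeting siRNA with cells given none, and the transfection reagent may differ between them as well. Unstimulated CCL2 averaged 22.5 ± 0.882 CPM in the SCR libraries against 13.6 ± 3.50 CPM in the WT libraries (SD, n = 3). Every SCR library was above every WT library, which held for 11.1% of all genes. Its log2 fold change of 0.72 (SE 0.20, 95% interval 0.30 to 1.14) missed the threshold (edgeR adjusted p = 0.0555, unadjusted p = 0.00195). It passed under each of 6 other ways of fitting, with adjusted p from 8.4e-05 to 0.0456: RLE scaling (3.22% of all genes called), no low-count filter (2.25%), DESeq2 on all libraries (5.59%), a replicate block (5.6%), edgeR on the 6 libraries alone (2.6%) and DESeq2 on these alone with no filter (2.34%). Replicate numbers did not pair these libraries, where correlations of deviations from group means ran from -0.0526 to 0.0644. Of the 6 edgeR fits with 1 library left out, 5 missed the threshold, with adjusted p of up to 0.201. CCL2 passed when WT replicate 1, the highest WT library, was left out (0.95, edgeR adjusted p = 0.0253). Without LPS edgeR thus called 0 of the 4 genes and 3.23% of all genes. Of the 4, 1 had an unadjusted p under 0.05, against 17.2% of all genes, and DESeq2 called 1. CCL22 was at -0.10 (95% interval -0.65 to 0.44), CCL8 at 0.48 (-1.38 to 2.34) and CCL20 at 0.18 (-2.42 to 2.79).

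After LPS, CCL8 averaged 14.8 ± 7.89 CPM in the SCR libraries against 4.21 ± 2.12 CPM in the WT libraries (SD, n = 3), again without overlap, as for 10.6% of all genes in this direction. The log2 fold change was 1.80 (SE 0.48, 95% interval 0.81 to 2.79) with an edgeR adjusted p of 0.127 and an unadjusted p of 0.00107. In these 6 libraries, samples with the same number correlated best in their deviations from group means for all 3 numbers. This held for no other pair of groups, and was read from the same libraries that the block then tests. With the replicate number as a block CCL8 passed the threshold (1.80, edgeR adjusted p = 0.00197, 0.809% of all genes called). With the block in a fit to these 6 libraries alone, CCL8 (1.80, edgeR adjusted p = 3.8e-07), CCL2 (0.45, adjusted p = 4.1e-04) and CCL20 (0.89, adjusted p = 0.00128) all passed, where 15.6% of the genes tested were called. This fit was added after seeing the data. Without the block CCL2 was at 0.47 (edgeR adjusted p = 0.277), CCL20 at 0.96 (adjusted p = 0.418) and CCL22 at -0.38 (adjusted p = 0.547). Thus edgeR without the block and with the filter called 0 of 4 and 0.114% of all genes. Of the 4, 2 had an unadjusted p under 0.05, against 13.7% of all genes. When no filter on low counts was used, edgeR without the block called 3 of the 4 and 1.74% of all genes, with an adjusted p of 2.9e-08 for CCL8, 0.0176 for CCL2 and 0.00782 for CCL20. DESeq2 called 0 of the 4 on all libraries and, on the 6 libraries with no filter, 1 of the 4 (CCL2) and 1.5% of all genes. CCL22 had an adjusted p in 5 of 7 alternative fits, and CCL8 and CCL20 in 6.

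KD against WT differs in the TRAFD1 siRNA, in the presence of any siRNA and, as the labels conflict, possibly in the transfection reagent. It shares its WT libraries with the comparison above. TRAFD1 itself was lower in KD than in WT without LPS (log2 fold change -1.23, edgeR adjusted p = 0.00156). With LPS it did not pass (-0.23, adjusted p = 0.563), and its KD and WT libraries overlapped. With LPS 1 of the 4 genes, CCL8, was higher in KD, where 6.29% of all genes were called higher. CCL8 was at 18.8 ± 7.80 CPM in KD against 4.21 ± 2.12 CPM in WT, a difference of 2.16 (log2, SE 0.47) with an edgeR adjusted p of 0.00803 and no overlap of the libraries. The adjusted p was 0.0575 without WT replicate 6 (log2 fold change 1.79) and 0.0506 without KD replicate 5 (1.84). CCL20, at 21.4 ± 7.23 against 8.13 ± 4.09 CPM, had no overlap either (18.6% of all genes were higher in this way) and was 1.39 higher on the log2 scale (SE 0.52), which missed the threshold (edgeR adjusted p = 0.0865). It passed with edgeR when low genes were kept (adjusted p = 1.0e-06, 6.24% of all genes called), with the replicate block (0.00639, 15.4% called) and in the 6 libraries alone (0.00204, 21.6% called). Replicate numbers did not pair these KD and WT libraries, where correlations of deviations from group means ran from -0.0737 to 0.0367. CCL2 was at 0.21 (edgeR adjusted p = 0.509) and CCL22 at -0.08 (adjusted p = 0.898).

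The monocytic markers summed to between 975 and 1033 CPM in the WT libraries with LPS and to between 1128 and 1232 CPM in KD with LPS, and the B cell list to between 37.3 and 45.2 and between 49.5 and 53.4 CPM. All 5 B cell markers had counts, PAX5 with 9453 of them and MS4A1 and CD79A with 9 and 13 over all libraries. The part of these shifts in the CCL8 result was not tested. Without LPS none of the 4 genes passed between KD and WT with edgeR after the filter or with DESeq2. Over all genes edgeR called 11.7%. The 1 gene with an unadjusted p under 0.05 was CCL2 (log2 fold change 0.44, edgeR adjusted p = 0.177), against 25.8% of all genes. CCL2 passed with edgeR and no filter (0.43, adjusted p = 0.0385, 5.96% of all genes called). CCL22 without LPS was at 0.36 (edgeR adjusted p = 0.403), and at 0.77 (adjusted p = 0.0457) without WT replicate 2, its highest WT library.

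**Figure D4:**
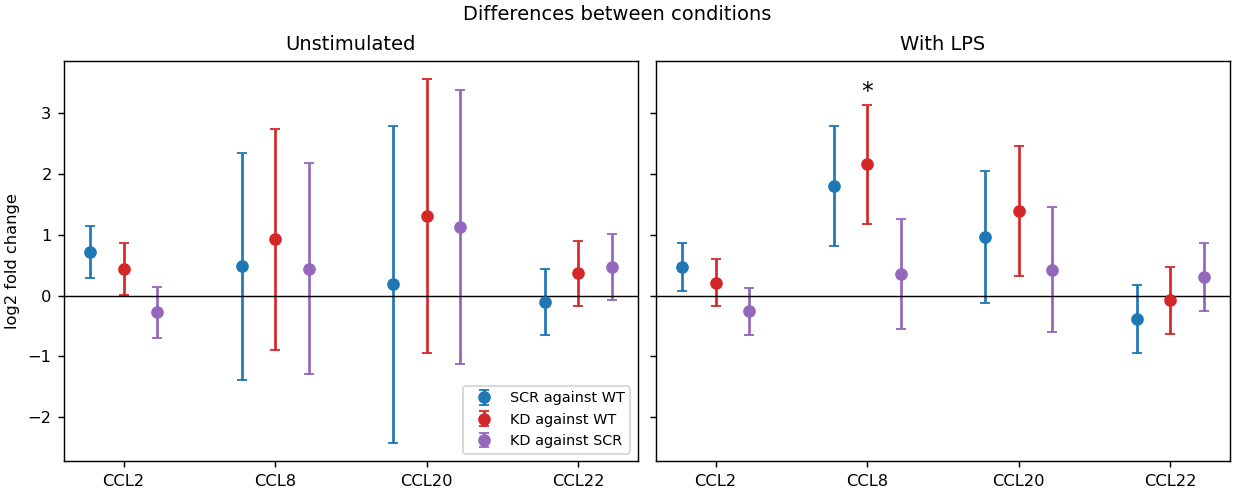
Log2 fold change between conditions for the 4 tested genes, without LPS (left) and with LPS (right), with 95% intervals; colours give SCR against WT, KD against WT and KD against SCR, and a star marks an edgeR adjusted p under 0.05. The star stands on CCL8 for KD against WT with LPS, and the 8 intervals of KD against SCR all include 0.

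Whether the size of the LPS response differed between conditions was tested as an interaction. None of the 4 genes passed for KD against SCR, SCR against WT or KD against WT, with edgeR adjusted p of 0.606 or more. There were 0 calls by DESeq2, and edgeR called 0%, 0.234% and 0.36% of all genes. No gene of the 4 had an unadjusted p under 0.05, against 7.64%, 9.96% and 15.5% of all genes. The difference for CCL2 was 0.02 between KD and SCR (95% interval -0.55 to 0.59) and -0.25 between SCR and WT (-0.82 to 0.32). For CCL8 it was -0.09 between KD and SCR (-1.91 to 1.74), 1.32 between SCR and WT (-0.88 to 3.53) and 1.23 between KD and WT (-0.94 to 3.41).

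The make-up of the chemokine transcripts shifted with LPS. CCL2 took between 58.1% and 82.7% of the summed counts of CCL2, CCL7, CCL8, CCL20 and CCL22 without LPS and between 67.6% and 90.1% with LPS. CCL22 took between 14.6% and 40.5% without LPS and between 1.71% and 4.72% with LPS, at nearly the same CPM. With LPS the ratio of CCL20 to CCL8 counts was 1.86, 2.00 and 1.94 in the WT libraries, 0.891, 1.26 and 0.844 in SCR, and 1.04, 1.11 and 1.37 in KD. The 3 WT libraries lay above the other 6. The ratio of CCL8 to CCL2 counts was 0.0518, 0.0412 and 0.0197 in WT, 0.0863, 0.143 and 0.0564 in SCR, and 0.152, 0.209 and 0.0864 in KD. Here WT lay below the other 6 libraries, and replicate 6 was lowest in each condition. An exact permutation test of 3 against 3 libraries cannot go below 0.1, and none was run on these ratios.

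Over the 6 group means of centred log2 CPM, CCL8 and CCL20 had the most similar patterns among the tested members, with a root mean square difference of 0.449. The difference was 0.978 between CCL2 and CCL8, 1.16 between CCL2 and CCL20, and between 1.53 and 2.62 for CCL22 with the others. Among all other genes tested, the pattern most like that of CCL2 was that of TNFAIP3, an inhibitor of NF-kB signalling (0.177), followed by RGL1 (0.220). For CCL8 these were the cytokine gene IL1B (0.580) and the CXC chemokine gene CXCL2 (0.660). For CCL20 they were EBI3, a cytokine subunit gene (0.492), and CXCL1, a CXC chemokine gene (0.597). CCL22 was most like ARMH1 (0.0426) and the ribosomal protein gene RPS10 (0.0493). Its centred means ran only from -0.30 to 0.36, and this difference is small between any genes that change little. These are descriptions over 6 means that share their libraries.

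The receptors were examined as a list of 14 genes, of which 6 were tested. CCR2, the receptor of CCL2, CCL7 and CCL8, fell with LPS in all conditions, by 0.85 on the log2 scale in WT (edgeR adjusted p = 1.0e-06), by 0.55 in SCR (adjusted p = 3.8e-04) and by 0.39 in KD (adjusted p = 0.00890). In the unstimulated groups CCR2 averaged 124 ± 5.32 CPM (WT), 78.3 ± 6.34 CPM (SCR) and 74.2 ± 2.85 CPM (KD), and in the groups with LPS 68.6 ± 4.48, 53.5 ± 3.65 and 56.5 ± 2.44 CPM, each with its SD over 3 libraries. Without LPS CCR2 was lower in SCR (-0.66, edgeR adjusted p = 3.7e-04) and in KD (-0.74, adjusted p = 4.8e-05) than in WT. Receptors called higher with LPS numbered 3 (WT), 2 (SCR) and 0 (KD, where 1 had an unadjusted p under 0.05), against 7.01%, 8.64% and 6.41% of all genes. An unadjusted p under 0.05 in either direction was found for 26.1% of all genes in KD. Of the 6 tested receptors, CCR7 had enough counts through its LPS libraries, and it enters these counts and the median over the 6. CCR2 was the 1 called lower in each condition, against 7.26%, 8.56% and 5.05% of all genes.

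CCR1, which binds CCL5 and CCL7 among others, rose by 0.56 in WT (edgeR adjusted p = 5.6e-04) and by 0.30 in SCR (adjusted p = 0.0487). CCR7, the receptor of CCL19 and CCL21, went from 0 counts to 36 in WT, at least 18.1-fold higher than the floor over the group, and CCRL2, an atypical chemokine receptor, rose by 1.96 in WT (edgeR adjusted p = 0.0221). CCR10 rose by 2.04 in SCR (edgeR adjusted p = 0.0140). Without LPS CCR7 was higher in SCR than in WT (12 against 0 counts, edgeR adjusted p = 0.0340) and CCR1 higher in KD than in WT (0.34, adjusted p = 0.0331). These SCR libraries held 3 to 5 counts of CCR7, at 0.222 to 0.308 CPM, within the range of the 3-count floors. CCR6, the receptor of CCL20, was listed at 0 in every library, and so were CCR8 and ACKR1. Between KD and SCR 0 of the 6 passed with edgeR in either state. An unadjusted p under 0.05 was found for 0 of them, against 12.6% of all genes without LPS and 11.8% with LPS. The median over the 6 tested receptors with LPS was 0.81 in WT, 0.87 in SCR and 0.16 in KD, against -0.03, -0.03 and -0.0029 over all genes.

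Of 18 other CC chemokine genes 11 had an identifier in the table and 3 were tested. CCL19, a ligand of CCR7, rose with LPS in each condition. Its LPS libraries gave it enough counts to be tested. It had 124 counts with LPS against 2 without in WT, a ratio of 93.8 with a counting interval of 25.4 to 783. In SCR and KD it had 70 and 44 counts with LPS and 0 without, which is at least 28.6-fold and 13.6-fold higher than the floor over the group. With LPS CCL19 was lower in KD than in WT (log2 fold change -1.78, edgeR adjusted p = 0.0411), the opposite direction to CCL8. CCL13, a further ligand of CCR2, rose in WT (1.55, edgeR adjusted p = 0.0251), and was at 1.19 in SCR (adjusted p = 0.0854) and 1.26 in KD (adjusted p = 0.0903), each without overlap of the libraries. Of all genes tested, 15.0% in WT, 17.5% in SCR and 12.8% in KD were higher without overlap.

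The list of regulators held 27 genes of LPS sensing, transcription, interferon signalling and mRNA decay, of which 26 were tested. With LPS 11 rose and 3 fell in WT, 8 rose and 3 fell in SCR, and 10 rose and 2 fell in KD. Of all genes 7.01%, 8.64% and 6.41% were called higher and 7.26%, 8.56% and 5.05% lower in these conditions. The smallest adjusted p in WT were those of ZC3H12A, an RNase that degrades inflammatory mRNA (3.60), and of the NF-kB genes NFKB1 (2.55), NFKB2 (2.39) and RELB (2.37), with edgeR adjusted p of 1.6e-09 or less. These 4 genes rose in SCR and KD too, with NFKB1 at 1.79 and 1.83 and ZC3H12A at 2.68 and 2.46. CD14, the LPS co-receptor, fell by 0.74 in WT, by 1.53 in SCR and by 1.07 in KD, and CEBPB fell in all conditions.

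Without LPS 6 regulators were higher in SCR than in WT (1.78% of all genes were). The first were RELB (1.19, edgeR adjusted p = 3.8e-04), JUN (0.72), NFKB1 (0.65) and CD14 (1.14). Called lower were 0, and 3 were lower at an unadjusted p under 0.05, which 17.2% of all genes had in either direction. In KD against WT without LPS, where 5.85% of all genes were called in each direction, 7 were higher, among them RELB (0.76) and ZFP36 (1.38), and TLR4 was lower (-0.96, edgeR adjusted p = 0.00697). With LPS 3 were higher and 6 lower in KD than in WT (6.29% and 4.55% of all genes), including IRF1 (-0.56), ZC3H12A (-0.67) and RELA (-0.60), with edgeR adjusted p of 0.00293, 0.00293 and 0.00369. The LPS response of 4 regulators was lower in SCR than in WT (0.216% of all genes), RELB (-1.67), NFKB2 (-1.29), ZC3H12A (-0.92) and NFKB1 (-0.77), and that of 3 was lower in KD than in WT (0.3% of all genes). Between KD and SCR 0 of the 26 passed with edgeR in either state. At an unadjusted p under 0.05, 6 were lower without LPS, and 2 were higher and 6 lower with LPS. In either direction 12.6% of all genes without LPS and 11.8% with LPS had such a p. No such interaction passed for CCL2, CCL8 or CCL20, whose intervals are wider.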

How the data were processed

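The authors aligned QuantSeq reads of 18 THP-1 libraries to GRCh37 with HISAT, counted them per gene with featureCounts on an Ensembl annotation limited to 500 bases per gene, and deposited 1 table of raw counts. All 18 columns were used. Symbols and GRCh37 positions came from GENCODE v44lift37, and promoters from RefSeq. The genes, lists and tests were chosen with earlier results of these data known. Named genes are the 6 chemokines, TRAFD1, the 2 genes nearest in pattern to each tested chemokine, and list genes past 0.05, at most 4 per list and comparison. The filter filterByExpr kept 16678 genes, and all libraries entered 1 fit of the 6 group means in edgeR 4.0.16 (TMM, quasi-likelihood F test) with R 4.3.3. P-values were adjusted over all genes tested. The SE is the log2 fold change over the square root of F. DESeq2 1.42.0, other scaling, no filter, a replicate block, fits to single contrasts and leaving out libraries were the alternatives. The code was tested on simulated data. Replicate numbers paired the SCR and WT libraries with LPS, where the 3 correlations of deviations from group means were 0.163 to 0.261, as a property of the data and not of the labels.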

Additional observations from a re-analysis of the deposited data

How the results depend on the processing

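Over 48 log2 fold changes of the 4 tested genes and 616 alternative values (those with no adjusted p from DESeq2 left out), 561 kept their direction and side of the threshold, and 28 of 28 mean levels of CCL2, CCL7, CCL8, CCL20 and CCL22 above 0 moved by less than 1 SD without TMM scaling. The LPS calls of CCL2, CCL8 and CCL20 held in WT, SCR and KD under every alternative tried. Of 172 alternative counts of genes called, 18 moved, and the cause was not tested. In SCR against WT without LPS the count went from 0 to 1 with RLE scaling, with no filter, with DESeq2 on all libraries (1), with the replicate block (1), and in the contrast alone with edgeR (1) and with DESeq2 and no filter (1), and lay between 0 and 1 with 1 library left out. In SCR against WT with LPS it went from 0 to 3 with no filter (1.74% of all genes called), to 1 with the replicate block, to 1 with DESeq2 on the contrast alone with no filter (1.5%) and to 3 with the block on the contrast alone, an alternative added after seeing the data. In KD against WT without LPS it went from 0 to 1 with no filter and lay between 0 and 1 with 1 library left out. In KD against WT with LPS it went from 1 to 2 with no filter, with the replicate block (2) and on the contrast alone (2), and lay between 0 and 1 with 1 library left out. Replicate numbers did not pair the other groups, where correlations of deviations ran from -0.0875 to 0.304. The replicate block was not run for the LPS responses, which share no numbers, and it changed no call other than those above.

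A sign turned for values that passed no test. RLE scaling moved CCL2 in the KD against SCR interaction from 0.02 to -0.0010. The rest turned with 1 library left out, over these ranges of log2 fold change. In the LPS response in WT, CCL22 ran from -0.12 to 0.49. In KD against SCR, CCL8 ran from -1.02 to 1.40 and CCL20 from -0.14 to 1.66 without LPS, and CCL8 from -0.00042 to 0.82 with LPS. In SCR against WT without LPS, CCL8 ran from -0.48 to 0.77, CCL20 from -0.33 to 1.49 and CCL22 from -0.31 to 0.30. In KD against WT, CCL8 ran from -0.54 to 1.38 without LPS and CCL22 from -0.19 to 0.039 with LPS. In the KD against SCR interaction, CCL2 ran from -0.15 to 0.33, CCL8 from -1.05 to 1.38 and CCL20 from -1.23 to 0.57. In the SCR against WT interaction CCL20 ran from -0.53 to 1.29. In the KD against WT interaction CCL2 ran from -0.46 to 0.085 and CCL20 from -1.23 to 1.36. Depth limits CCL8 and CCL20 without LPS, where a library held at most 18 counts, and CCL7 throughout.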
